A study of Mus musculus with 10 samples.

Results

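The 10 genes studied here belong to the adrenomedullin pathway and to the response to low oxygen, and were measured in the interscapular brown fat depot (iBAT) of wild-type mice and mice labelled *Mgp*-KO. They were the ligand *Adm*, the receptor gene *Calcrl* with its partners *Ramp1*, *Ramp2* and *Ramp3*, the oxygen-regulated transcription factor genes *Hif1a* and *Epas1*, and the hypoxia genes *Egln3*, *Bnip3* and *Ndrg1*. These 10 genes, of 27267 listed, were taken by symbol because they belong to this ligand and receptor system or are common hypoxia genes. *Adm* was chosen by its higher normalized counts in the labelled *Mgp*-KO libraries, so the genotype differences of the 10 genes are given as descriptions with their standard errors and without a p-value. Where the number of them past a threshold in that contrast is given, it only describes the fit.

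RNA-seq was performed on iBAT from 10 mice, labelled as C57BL/6 males of 4 weeks on a chow diet. The 5 libraries WT 1 to 5 were wild type and the 5 libraries KO 1 to 5 were labelled *Mgp*-KO, a global knockout in which *Mgp*, an extracellular inhibitor of bone morphogenetic proteins, is deleted in all tissues. No agent was given to either group, and no other allele was labelled. The values are normalized counts, that is, reads per gene divided by a size factor of the library.

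*Mgp* was measured first as a check of the labels. It was 576, 489, 466, 1146 and 839 normalized counts in WT 1 to 5 and 0, 0.765, 0.821, 500 and 331 in KO 1 to 5. KO 1, 2 and 3 therefore held at most 1 read of *Mgp*, whereas the libraries labelled KO 4 and KO 5 held it at 500, within the wild-type range, and at 331, below it. All labels were kept, and the group is called labelled *Mgp*-KO throughout. Replicates 1-3 also differed from replicates 4-5 in depth and in the share of reads on mitochondrial ribosomal RNA genes, which was 0.771% to 1.72% in the former and 6.50% to 16.7% in the latter. Libraries held 9253793 to 22252260 reads on genes, and 3 reads, the limit that a count of 0 allows, corresponded to 2.15 to 5.19 normalized counts, for counting error only. *Xist* was 5094 normalized counts in WT 2 and at most 44.0 in the other libraries, although all mice were labelled male. The summed Y chromosome genes *Ddx3y*, *Eif2s3y*, *Kdm5d* and *Uty* were 3.74 in WT 2 and 1457 to 7035 in the others. WT 2 thus held the RNA pattern of a female, against its label, and was kept in the wild-type group. All 12 brown adipocyte markers were detected in every library, with *Fabp4* and *Ucp1* the most abundant in wild type. In whole tissue, fewer cells of a type and less RNA per cell cannot be told apart.

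Adrenomedullin is a secreted peptide that widens blood vessels and is needed for blood and lymphatic vessel development. It acts through the calcitonin receptor-like receptor, encoded by *Calcrl*, which becomes an adrenomedullin receptor when paired with RAMP2 or RAMP3 and a receptor for calcitonin gene-related peptide (CGRP) when paired with RAMP1. When oxygen falls, prolyl hydroxylases such as the product of *Egln3* no longer mark HIF-1α and HIF-2α (encoded by *Hif1a* and *Epas1*) for destruction, and the stabilised factors raise transcription of target genes that include *Adm*, *Egln3*, *Bnip3* and *Ndrg1*. This control acts mainly on the protein, so the mRNA of *Hif1a* and *Epas1* is not a measure of it.

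*Adm*, chromosome 7, 110627661 to 110629820 on the plus strand of GRCm38, is a protein-coding gene of 4 exon blocks with no overlapping gene in GENCODE M21. HIF binds a short core in the regulatory DNA of its targets, written ACGTG or GCGTG on either strand. The RefSeq table (GRCm38.p6) gave the 250 bases before the start of 7 of the 10 genes, and the 3 sequences printed here are those of the ligand and of a pair of hypoxia genes that are described further on. Capitals mark matches to either core on either strand, and all sequences run 5′ to 3′ on the strand of the gene.
Adm, chr7:110627407-110627656, plus strand: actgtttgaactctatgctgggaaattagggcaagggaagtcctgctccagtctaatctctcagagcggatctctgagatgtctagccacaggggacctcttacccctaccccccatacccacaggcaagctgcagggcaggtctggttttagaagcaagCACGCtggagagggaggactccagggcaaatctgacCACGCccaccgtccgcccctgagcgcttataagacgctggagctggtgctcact
Bnip3, chr7:138909507-138909756, minus strand: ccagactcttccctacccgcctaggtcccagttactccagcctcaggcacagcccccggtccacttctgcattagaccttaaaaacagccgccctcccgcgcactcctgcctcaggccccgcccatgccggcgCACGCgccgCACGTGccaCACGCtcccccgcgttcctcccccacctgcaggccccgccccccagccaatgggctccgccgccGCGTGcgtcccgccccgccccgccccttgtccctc
Egln3, chr12:54203875-54204124, minus strand: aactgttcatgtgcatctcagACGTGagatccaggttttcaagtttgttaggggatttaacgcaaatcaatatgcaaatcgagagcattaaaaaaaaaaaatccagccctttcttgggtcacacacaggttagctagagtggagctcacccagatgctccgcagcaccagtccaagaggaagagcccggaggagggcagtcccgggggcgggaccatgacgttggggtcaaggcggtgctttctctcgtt
*Adm* held 2 GCGTG matches, which begin 90 and 54 bases before the start. *Bnip3* held 2 ACGTG and 3 GCGTG matches, and the CACGTG run counts as a match on each strand. *Egln3* held 1 ACGTG match, 229 bases before the start. A match to either core was found in 5 of the 7 genes (71.4%) and in 38.6% of all 32851 promoters of this length, ACGTG in 16.6% of them and GCGTG in 28.2%. The matches are letters in these windows and do not show that a factor binds there. *Hif1a* and *Ramp3* also held matches, whereas these letters were not in the windows of *Calcrl* and *Ramp1*.

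*Adm* was higher in every labelled *Mgp*-KO library than in any wild-type library. It was 41.5, 27.7, 31.6, 29.3 and 27.7 normalized counts in WT 1 to 5 and 103, 117, 97.7, 71.2 and 107 in KO 1 to 5. The lowest labelled *Mgp*-KO value, in KO 4, was still above the highest wild-type value, in WT 1. The group means were 31.6 ± 5.78 and 99.2 ± 17.1 (SD, n = 5), a ratio of 3.14. The log2 difference, on the log2(normalized count + 1) scale used throughout, was 1.62 (SE 0.22) over all libraries, 1.64 (SE 0.21) within replicates 1-3 and 1.58 (SE 0.49) within replicates 4-5. KO 4 and KO 5, which carried *Mgp* reads, thus held *Adm* at 71.2 and 107 beside 29.3 and 27.7 in WT 4 and WT 5. Without KO 4 and KO 5 the log2 difference was 1.73. These values rest on 16 to 58 *Adm* reads in the wild-type libraries and 44 to 153 in the labelled *Mgp*-KO libraries.

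**Figure D1:**
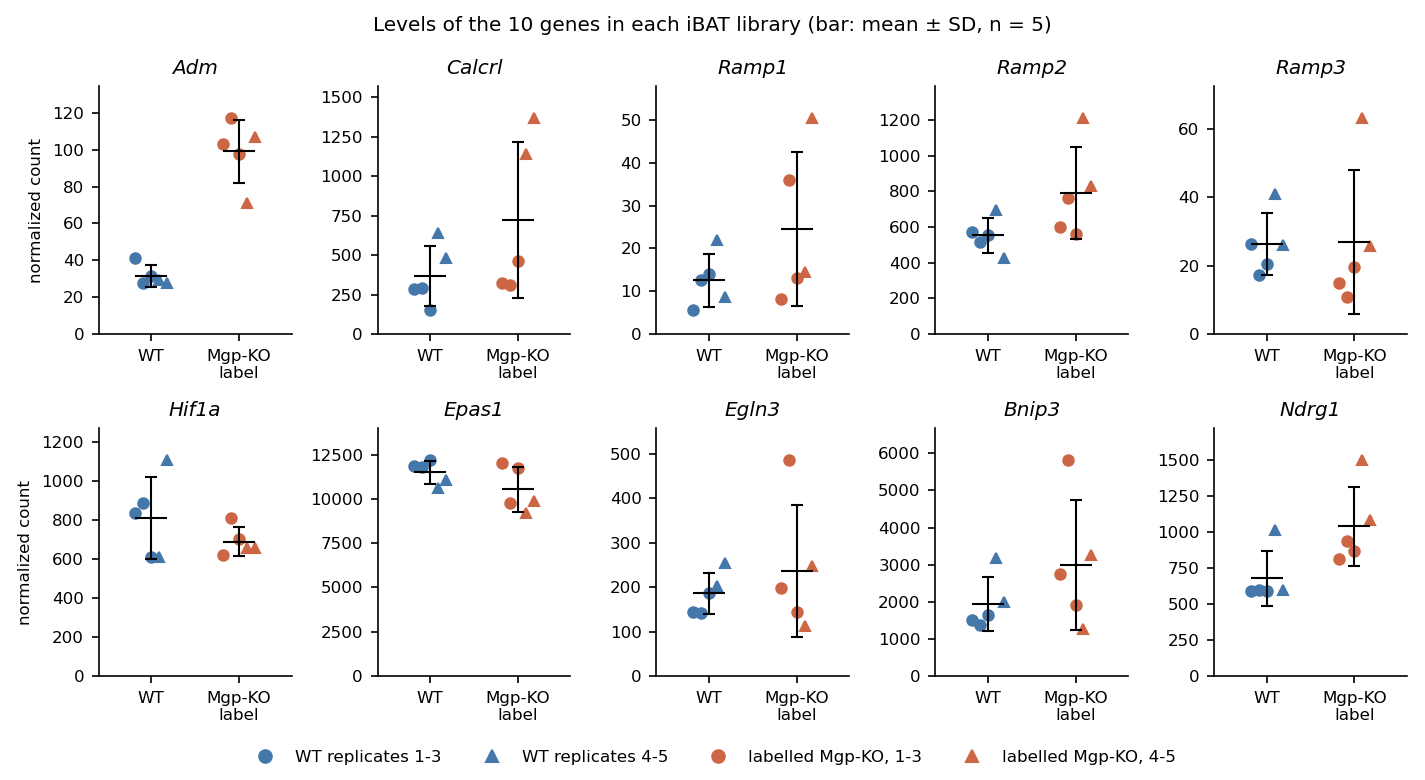
Normalized counts of the 10 genes in each library, with circles for replicates 1-3, triangles for replicates 4-5 and bars for the mean ± SD of 5 libraries. The *Adm* values of the labelled *Mgp*-KO libraries, 71.2 to 117, all lie above those of wild type, 27.7 to 41.5, and the groups overlap for the other genes.

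Among the 10 genes, *Adm* was the only one whose groups did not overlap over all 10 libraries, beside 1.39% of all 13714 tested genes with labelled *Mgp*-KO values all higher. It was likewise the only one of the 10 past the threshold (adjusted p of 0.05) in the limma fit over all libraries, in which 0.0656% of tested genes passed, and this call was lost without WT 2, WT 3, WT 5, KO 1, KO 2, KO 3 or KO 5. In limma, 2 of the 10 passed within replicates 1-3 (*Adm* and *Ndrg1*, beside 3.54% of tested genes) and 0 within replicates 4-5 (beside 0.0%). With edgeR 0 of the 10 passed (beside 0.0219%), with DESeq2 1 (*Adm*, beside 2.26%), and with DESeq2 and a term for replicates 4-5 against 1-3 (the set term) 3 passed (*Adm*, *Calcrl* and *Ndrg1*, beside 7.42%). Nothing is read from these counts, since *Adm* was chosen for this difference. All 10 genes passed the filter on low values, a mean of at least 10 normalized counts, and the lowest of their wild-type means was 12.6, for *Ramp1*.

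The receptor gene *Calcrl* (chromosome 2, 84330626 to 84425411, minus strand) encodes the G protein-coupled part of the receptor. It was 284, 290, 151, 638 and 481 normalized counts in WT 1 to 5 and 325, 312, 461, 1141 and 1366 in KO 1 to 5. The labelled *Mgp*-KO values were all higher within replicates 1-3 and within replicates 4-5, but the groups overlapped over all 10 libraries because WT 4 and WT 5 were above KO 1, KO 2 and KO 3. The log2 difference was 0.85 (SE 0.49) over all libraries, 0.63 (SE 0.28) within replicates 1-3 and 1.17 (SE 0.32) within replicates 4-5. Without KO 5 it was 0.55, and without both KO 4 and KO 5 it was 0.13. These fits keep WT 4 and WT 5, and *Calcrl* was higher in replicates 4-5 (log2 difference 1.52). They thus mix genotype with replicate set, which the differences within each set do not.

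*Ramp2* (chromosome 11, 101246028 to 101259546, plus strand), whose product gives the main adrenomedullin receptor of vessels, was 572, 517, 554, 695 and 426 normalized counts in wild type and 601, 761, 559, 1209 and 832 in labelled *Mgp*-KO. KO 4 stood highest, and KO 1 and KO 3 lay among the wild-type values. This gave a log2 difference of 0.48 (SE 0.23) over all libraries, 0.21 (SE 0.14) within replicates 1-3 and 0.88 (SE 0.38) within replicates 4-5. Without KO 4 it was 0.32. *Ramp2* overlaps *Vps25* on the same strand, and reads of the shared bases cannot be assigned to one of them here.

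*Ramp3* (chromosome 11, 6658521 to 6677475, plus strand), the other adrenomedullin receptor partner, was 26.5, 17.2, 20.6, 41.0 and 26.0 normalized counts in wild type and 15.1, 10.7, 19.7, 63.1 and 25.8 in labelled *Mgp*-KO. KO 4 held the highest value and KO 2 the lowest, so the labelled *Mgp*-KO group spanned the whole wild-type range. The 2 groups gave a log2 difference of -0.17 (SE 0.45), with -0.49 (SE 0.32) in replicates 1-3 and 0.30 (SE 0.65) in replicates 4-5. It was 0.07 without KO 2, -0.54 without KO 4 and -0.73 without both KO 4 and KO 5. The fits without KO 4 keep WT 4 and WT 5, and *Ramp3* was higher in replicates 4-5 (log2 difference 1.0). They thus mix genotype with replicate set. *Ramp1* (chromosome 1, 91179822 to 91225196, plus strand), the CGRP receptor partner, was 5.72, 12.7, 14.0, 22.0 and 8.65 normalized counts in wild type and 8.29, 36.0, 13.1, 14.6 and 50.4 in labelled *Mgp*-KO. KO 2 and KO 5 were above all other libraries, and the other 3 lay within the wild-type range. The log2 difference of *Ramp1* was 0.73 (SE 0.54), or 0.41 without KO 5, and rests on 5 to 47 reads per library.

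Since *Calcrl* and the RAMP genes are much expressed in vessels, the blood endothelial markers were summed in each library. All 17 were detected in every library, and the sum was 26991 to 44636 normalized counts in wild type and 31061 to 79715 in labelled *Mgp*-KO, with KO 4 the highest. *Cdh5* and *Kdr* were the most abundant, at 5670 ± 925 and 4593 ± 805 in wild type and 7125 ± 1518 and 6775 ± 3398 in labelled *Mgp*-KO (SD, n = 5). None of the 17 passed the threshold between genotypes in limma, 2 had an unadjusted p under 0.05, and 16 had a log2 difference above 0, with a median of 0.49. Of all 13714 tested genes, 1421 had such a p and 7228 a difference above 0, with a median of 0.03. *Sox18*, an endothelial transcription factor, was the one marker whose groups did not overlap (1.39% of tested genes were higher without overlap), at 430 ± 146 in wild type and 757 ± 81.0 in labelled *Mgp*-KO (log2 difference 0.90, adjusted p = 0.23). With the endothelial sum as a covariate, the log2 difference was 0.22 for *Calcrl*, 0.18 for *Ramp2*, -0.87 for *Ramp3* and 1.78 for *Adm*. As a share of the endothelial sum, *Ramp2* was 1.74% ± 0.200 in wild type and 1.82% ± 0.399 in labelled *Mgp*-KO, and *Calcrl* was 1.12% ± 0.481 and 1.56% ± 0.960 (SD, n = 5). The part of endothelial RNA in the *Adm* and receptor values was not tested further.

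**Figure D2:**
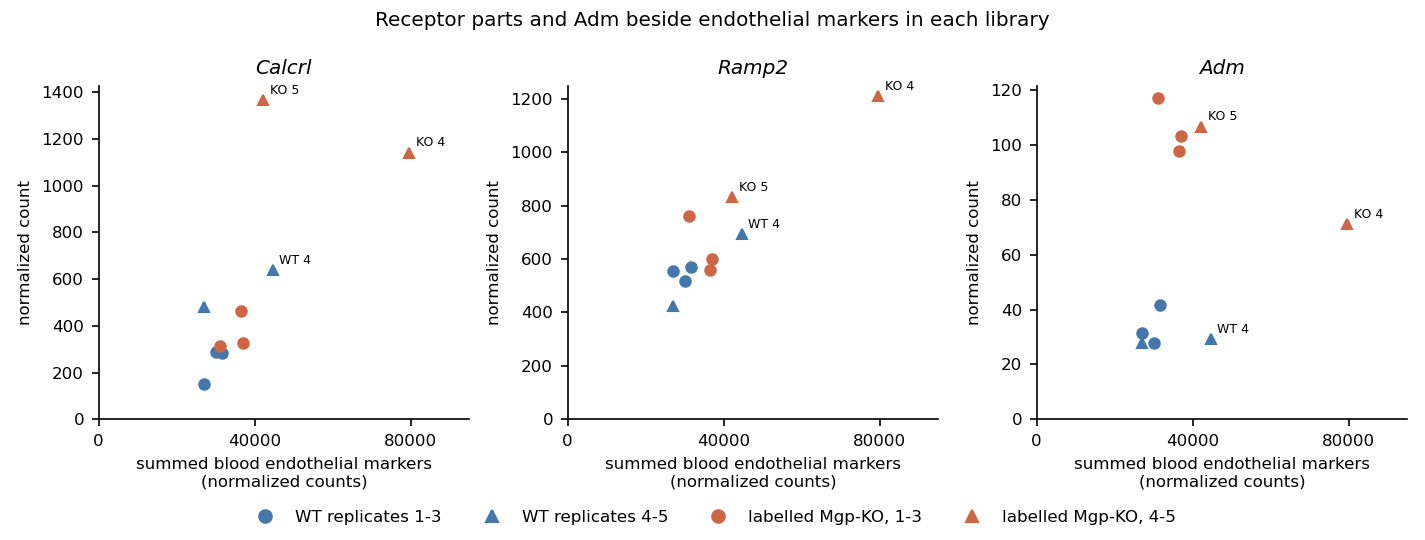
*Calcrl*, *Ramp2* and *Adm* (normalized counts) against the summed blood endothelial markers of each library. KO 4, with an endothelial sum of 79715, holds the highest *Ramp2* value, 1209, and the lowest *Adm* value of the labelled *Mgp*-KO libraries, 71.2.

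Further genes of the adrenomedullin and CGRP system were read from a list of 15, of which 14 were in the table and 10 were tested, the 5 already described included. *Ackr3* encodes a scavenger receptor that takes up adrenomedullin and the chemokine CXCL12. It was 1159, 815, 1098, 1966 and 1779 normalized counts in WT 1 to 5 and 366, 216, 413, 787 and 308 in KO 1 to 5. Every labelled *Mgp*-KO value was below every wild-type value. The log2 difference was -1.76 (SE 0.34), with adjusted p = 0.065 in limma over all libraries, and *Ackr3* fell past the threshold when the set term was added (adjusted p = 0.013), with 2.36% of tested genes called in that fit. Within sets its log2 difference was -1.66 in replicates 1-3 and -1.92 in replicates 4-5. With skeletal muscle markers as a covariate over all libraries it was -1.75 (SE 0.35). In the 5 libraries with little skeletal muscle RNA (WT 1, WT 2, KO 1, KO 3 and KO 4) it was -0.98 (SE 0.40). These hold KO 4 but no wild type of replicates 4-5, where *Ackr3* was higher (log2 difference 0.75, limma adjusted p = 0.043). Set and muscle RNA thus cannot be told apart in them.

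No other gene of the list outside the 10 passed in either fit. *Pam*, which amidates the peptide, was 469 ± 79.3 in wild type and 508 ± 69.1 in labelled *Mgp*-KO. *Mme*, a peptidase that degrades it, was 3503 ± 959 and 2239 ± 663 (SD, n = 5). *Crcp*, a CGRP receptor accessory protein, was 273 ± 28.9 and 396 ± 172. The other ligands were at the limit of detection, with 0 to 1 reads of *Adm2*, 0 to 1 of *Calcb* and 2 to 9 of *Calca* per library, and the calcitonin receptor gene *Calcr* had 0 to 1. *Iapp* was not analysed here.

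The transcription factor gene *Hif1a* (chromosome 12, 73901375 to 73947530, plus strand) was 836, 884, 609, 611 and 1104 normalized counts in wild type and 620, 807, 702, 656 and 655 in labelled *Mgp*-KO. The labelled *Mgp*-KO values lay inside the wild-type range. Its log2 difference was -0.20 (SE 0.20) over all libraries, -0.12 in replicates 1-3 and -0.33 in replicates 4-5, and -0.08 without WT 5. *Hif1a* overlaps *Gm49321* on the same strand and *Gm15283* on the other.

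*Epas1* (chromosome 17, 86753700 to 86833410, plus strand) encodes HIF-2α, the form prominent in endothelium. It was 11860, 11784, 12180, 10630 and 11045 normalized counts in wild type and 12051, 9774, 11759, 9219 and 9907 in labelled *Mgp*-KO. The groups overlapped, and within replicates 4-5 both labelled *Mgp*-KO values were lower. The log2 difference was -0.13 (SE 0.18), with -0.10 and -0.18 in the 2 sets. The mean of neither HIF gene was higher in labelled *Mgp*-KO than in wild type.

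Of the 16 listed HIF regulators, 15 were tested. None passed in limma over all libraries, in which 0.0656% of tested genes passed. An unadjusted p under 0.05 was found for 2 of the 15 and for 1421 of all 13714 tested genes. The median log2 difference was 0.08 beside 0.03 over all tested genes. *Cited2*, which competes with HIF for the coactivator p300, was 190, 180, 242, 108 and 157 normalized counts in wild type and 369, 891, 497, 194 and 356 in labelled *Mgp*-KO. Within each set the labelled *Mgp*-KO values were higher. *Cited2* passed the threshold in limma with the set term (log2 difference 1.26, adjusted p = 0.032 with the set term and 0.22 without it), beside 2.36% of tested genes. *Hif3a*, which encodes a HIF subunit with inhibitory forms, was low in wild type, at 4.29, 4.49, 8.09, 11.7 and 5.19, and was 24.1, 164, 17.2, 22.7 and 19.9 in labelled *Mgp*-KO. All labelled *Mgp*-KO values were higher, KO 2 stood far above the rest, and *Hif3a* entered the test only through them, since its wild-type mean of 6.76 was below the filter of 10. The log2 difference of 2.16 (SE 0.60) did not pass the threshold (limma, adjusted p = 0.21, and 0.081 with the set term).

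*Egln3* (chromosome 12, 54178981 to 54203860, minus strand), the prolyl hydroxylase gene that HIF itself induces, was 145, 143, 187, 204 and 254 normalized counts in WT 1 to 5 and 197, 486, 144, 112 and 247 in KO 1 to 5. KO 2 was the highest and KO 4 the lowest library, and the groups overlapped. *Egln3* had a log2 difference of 0.18 (SE 0.35), with 0.61 (SE 0.41) in replicates 1-3 and -0.45 (SE 0.47) in replicates 4-5. Without KO 2 it was -0.12, and without KO 4 it was 0.40.

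*Bnip3* (chromosome 7, 138890836 to 138909519, minus strand), which encodes a mitochondrial receptor for mitophagy, was 1519, 1378, 1652, 3166 and 1999 normalized counts in WT 1 to 5 and 2736, 5810, 1923, 1261 and 3260 in KO 1 to 5. Within replicates 1-3 all labelled *Mgp*-KO values were higher, whereas KO 4 was below every other library. *Bnip3* had a log2 difference of 0.50 (SE 0.38), with 1.05 (SE 0.36) in replicates 1-3 and -0.31 (SE 0.52) in replicates 4-5. Without KO 2 it was 0.22. *Bnip3* overlaps *Gm45507* on the other strand.

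*Ndrg1* (chromosome 15, 66929318 to 66969640, minus strand), a stress-induced gene, was 589, 601, 591, 1017 and 595 normalized counts in WT 1 to 5 and 811, 941, 868, 1499 and 1084 in KO 1 to 5. The labelled *Mgp*-KO values were higher in both sets without overlap, and WT 4 alone kept the groups from separating over all libraries. *Ndrg1* had a log2 difference of 0.62 (SE 0.22), with 0.55 (SE 0.11) in replicates 1-3 and 0.71 (SE 0.38) in replicates 4-5. It was 0.30 with the endothelial covariate and 0.61 with a covariate for skeletal muscle markers. *Ndrg1* overlaps *Gm17035* and *Gm2895* on the other strand.

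**Figure D3:**
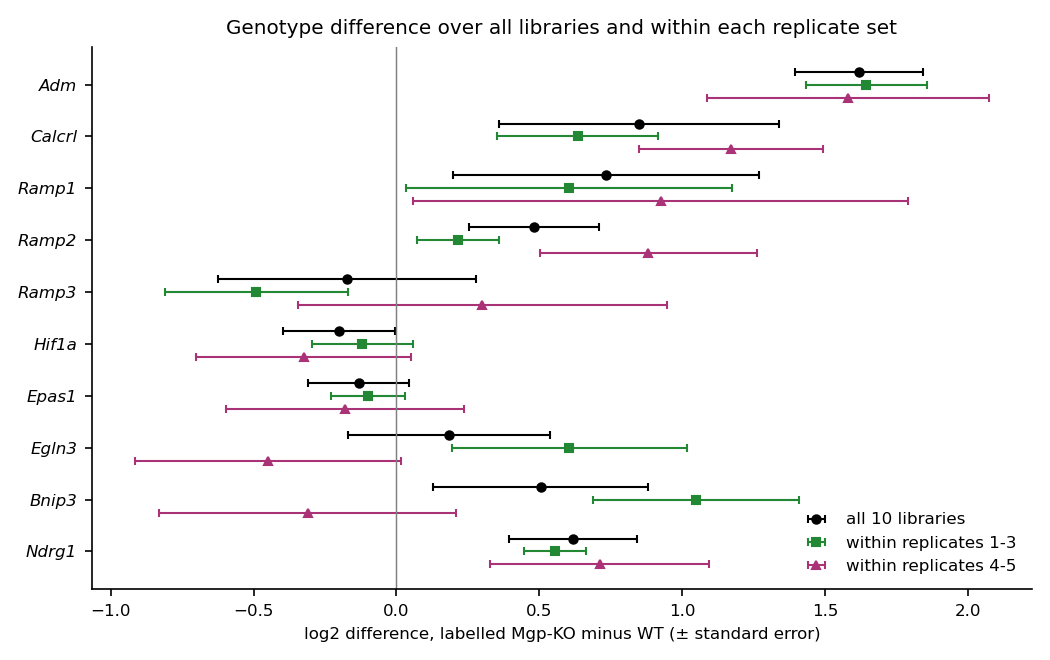
Log2 difference (labelled *Mgp*-KO minus wild type) of the 10 genes with its standard error, over all libraries and within replicates 1-3 and 4-5. *Adm* stays at 1.58 to 1.64 in the 3 comparisons, whereas *Bnip3* and *Egln3* are above 0 in replicates 1-3 and below 0 in replicates 4-5.

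Over the 10 genes, 7 had a log2 difference above 0 and the median was 0.49. Within replicates 1-3, *Adm*, *Calcrl*, *Bnip3* and *Ndrg1* did not overlap and were higher, 4 of 10 beside 15.5% of all tested genes. Within replicates 4-5, *Adm*, *Calcrl*, *Ramp2* and *Ndrg1* were higher without overlap, 4 of 10 beside 20.3%, and *Epas1* was lower without overlap, 1 of 10 beside 21.3%. *Adm*, *Calcrl* and *Ndrg1* were higher without overlap in both sets, 3 of 10 beside 4.54%. Nothing is read from these counts either, as they come from the contrast in which *Adm* was found.

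The hypoxia genes were read beside RNA of skeletal muscle, which lies next to this depot. All 10 muscle markers were detected in at least 8 of the 10 libraries. Their sum was 55.1, 51.7, 6946, 1403 and 4452 normalized counts in WT 1 to 5 and 49.7, 41724, 45.2, 343 and 38390 in KO 1 to 5. *Actn3* was at 0 in KO 3 and KO 4, *Tnni2* was at 0 in KO 1 and KO 3, and *Acta1* and *Myh4* were the most abundant markers in wild type. KO 2 and KO 5, with the most muscle RNA, were also the highest libraries for *Ramp1* and for *Adm*, and KO 2 was the highest for *Egln3*, *Bnip3* and *Hif3a*. In the 5 libraries with a muscle sum under 1000, *Egln3* was 145 and 143 in WT 1 and WT 2 and 197, 144 and 112 in KO 1, KO 3 and KO 4, a log2 difference of 0.03. Across the same libraries the log2 difference was 0.38 for *Bnip3*, 0.40 for *Ramp1*, 0.77 for *Ndrg1* and 1.38 for *Adm*. The *Adm* values of the low-muscle libraries were 41.5 and 27.7 in wild type and 103, 97.7 and 71.2 in labelled *Mgp*-KO. Only KO 4 among them was of replicates 4-5, so set and muscle RNA cannot be told apart in these libraries. With the muscle covariate over all 10 libraries the log2 difference of *Adm* was 1.61. No gene of all those tested passed the threshold in the 5 libraries or with this covariate, *Adm* included. The part of muscle RNA in *Adm*, *Egln3*, *Bnip3*, *Hif3a* and *Ramp1* was not tested.

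**Figure D4:**
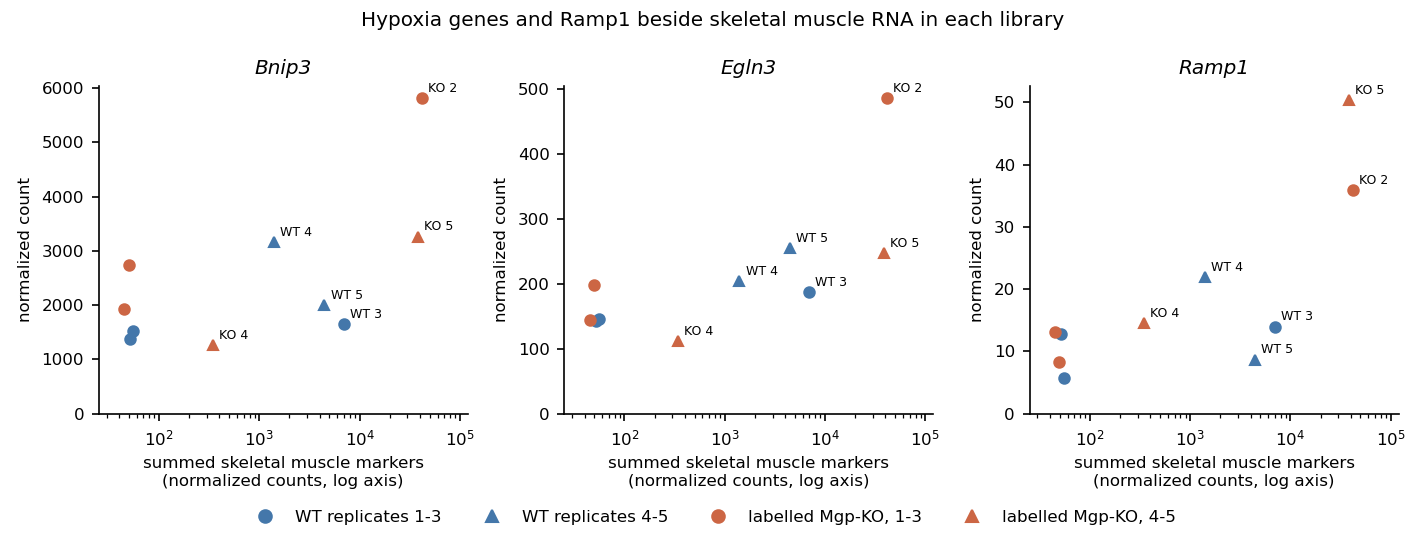
*Bnip3*, *Egln3* and *Ramp1* (normalized counts) against the summed skeletal muscle markers of each library on a log axis. KO 2, with a muscle sum of 41724, holds the highest *Bnip3* (5810) and *Egln3* (486) values, and KO 5 (38390) the highest *Ramp1* value (50.4).

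To ask whether the *Adm* difference went with other genes of the hypoxia response, 47 further HIF targets were examined, of which 45 were tested. None of the 45 passed the threshold in limma over all libraries, in which only 0.0656% of tested genes passed. An unadjusted p under 0.05 was found for 8 of them (1421 of all 13714 tested genes had one). With edgeR 0 were called, beside 0.0219%. DESeq2 called 3 (*Eno1*, *Ldha* and *Pfkl*), all lower, beside 2.26% of the genes it tested. A log2 difference above 0 was found for 17 of 45 and for 7228 of all 13714, and the median was -0.17 beside 0.03 over all tested genes. With the set term 4 of 45 passed, all lower, beside 1.54% of tested genes called lower. Over all 10 libraries 3 of 45 were lower without overlap and 0 were higher, beside 2.11% and 1.39% of tested genes. No HIF target of the 45 rose past the threshold in limma in either fit. DESeq2 with the set term called 3 higher (*Aldoc*, *Angptl4* and *Hilpda*) and 5 lower (beside 7.42%). Whether the *Adm* difference shares a cause with these genes was not tested.

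The 4 genes that fell with the set term were 3 enzymes of glycolysis and 1 regulator of glycogen. *Pfkl*, phosphofructokinase of the liver type, was 8372, 8223, 11680, 5072 and 9350 normalized counts in wild type and 5850, 3325, 5425, 2629 and 2823 in labelled *Mgp*-KO (log2 difference -1.12, adjusted p = 0.19 in limma without and 0.028 with the set term). KO 1 and KO 3 were above WT 4, and the groups separated within each set. *Ldha*, lactate dehydrogenase A, was 8647, 9052, 12716, 15003 and 16202 in wild type and 6045, 3910, 5619, 8019 and 7684 in labelled *Mgp*-KO, without overlap (log2 difference -0.98, limma adjusted p = 0.20 and 0.020).

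*Eno1*, enolase, was 4892 ± 1293 in wild type and 2101 ± 945 in labelled *Mgp*-KO (SD, n = 5), without overlap (log2 difference -1.33, limma adjusted p = 0.20 without and 0.025 with the set term). Its value is uncertain because *Eno1* has a near-identical copy with which it can share reads. *Ppp1r3c*, a glycogen-targeting subunit of protein phosphatase 1, was 1729 ± 740 and 982 ± 419 (log2 difference -0.81, limma adjusted p = 0.39 and 0.036). *Higd1a*, a mitochondrial hypoxia-inducible protein, was 702 ± 146 and 372 ± 130 without overlap (log2 difference -0.98, limma adjusted p = 0.21 and 0.078).

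The glycolysis genes and the other HIF targets were also read separately, with no test between them. Of the 18 glycolysis genes, 3 had a log2 difference above 0 and the median was -0.41. The 31 other HIF targets tested had 18 above 0 and a median of 0.13. These 31 include *Adm*, chosen for its rise, and *Bnip3*, *Ndrg1* and *Egln3*, each of them above 0. Of all 13714 tested genes 7228 were above 0, with a median of 0.03. Of 12 brown adipocyte markers, 1 had a log2 difference above 0, none passed in limma over all libraries, 5 had an unadjusted p under 0.05 (1421 of all 13714 tested genes did), and 3 fell with the set term, *Ucp1*, *Dio2* and *Elovl3*, beside 1.54% of tested genes. The sum of these markers was 238370 to 423540 normalized counts in wild type and 168530 to 310089 in labelled *Mgp*-KO. *Ucp1*, the uncoupling protein of brown fat, was 60876 ± 32192 and 10201 ± 5064 (SD, n = 5). The part of brown adipocyte RNA in the glycolysis values was not tested.

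**Figure D5:**
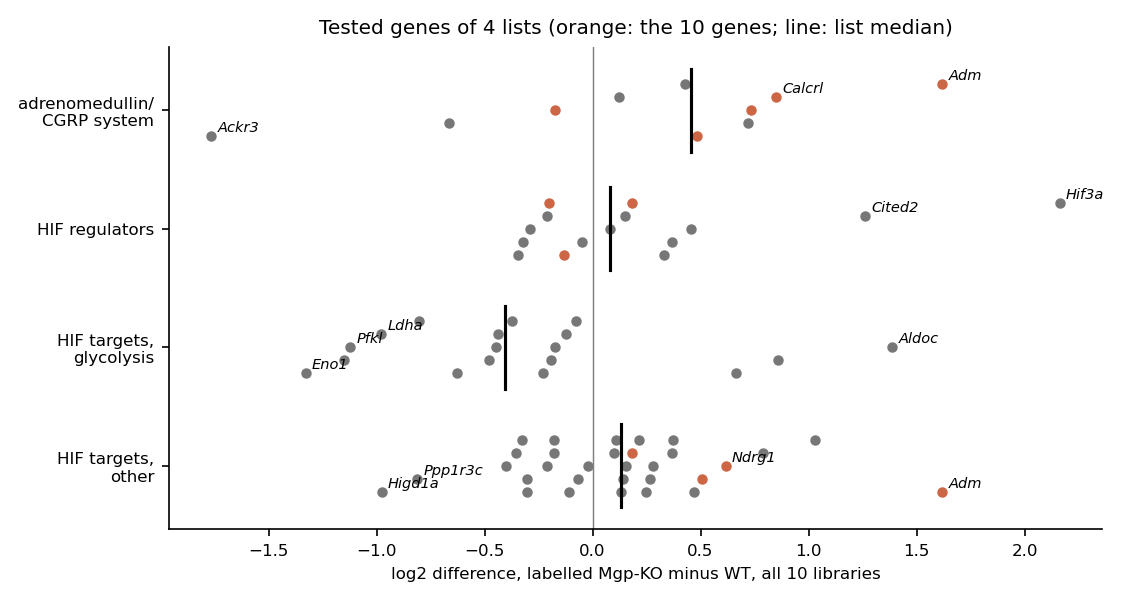
Log2 difference over all libraries of each tested gene in 4 lists, with the 10 genes in orange and a line at each list's median. *Adm* at 1.62 is at the right end of its lists, *Ackr3* at -1.76 is at the left, and the glycolysis genes have a median of -0.41.

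In a second comparison the replicate sets themselves were compared, which did not enter the choice of the 10 genes. In limma with genotype in the model, 5243 genes (38.2%) differed between replicates 4-5 and replicates 1-3. *Calcrl* was higher in replicates 4-5, with a mean of 906 against 304 normalized counts (log2 difference 1.52, SE 0.22, adjusted p = 5.22e-04). *Ramp3* was higher as well, at 39.0 against 18.3 (log2 difference 1.0, SE 0.34, adjusted p = 0.039), and so was *Ndrg1*, at 1049 against 733 (log2 difference 0.47, SE 0.17, adjusted p = 0.043). The other 7 genes did not pass, with *Adm* at a mean of 58.7 against 69.8 (log2 difference -0.24, SE 0.20, limma adjusted p = 0.36). The 3 of 10 that passed are to be read beside 18.3% of tested genes called higher. In the same contrast, 6 of the 17 blood endothelial markers were called higher and 1 lower. Of the 7 red blood cell markers, 5 were called higher. The part of these cell types in the set differences was not tested.

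The genotype difference was then compared between the sets by an interaction term in limma. Of all tested genes 1 (0.00729%) passed, *Mgp*, which follows from the reads in KO 4 and KO 5. None of the 10 genes passed. As a description, since these differences entered the choice of the genes, the interaction on the log2 scale was -0.06 (SE 0.40) for *Adm*, -1.36 (SE 0.68) for *Bnip3*, -1.06 (SE 0.68) for *Egln3* and 0.67 (SE 0.36) for *Ramp2*.

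Other features of the libraries moved with part of the samples. The summed immediate early genes, which respond to stress and handling, were 8859 to 11788 normalized counts in wild type and 21171, 22218 and 23980 in KO 1, KO 2 and KO 3, but 12725 and 3805 in KO 4 and KO 5. *Nr4a1* and *Jun* were the most abundant of them in wild type, and *Btg2* passed in limma with the set term (log2 difference 1.34, adjusted p = 0.048). Of the 13 genes, 7 were called higher in limma within replicates 1-3, 0 within replicates 4-5 and 4 by DESeq2 with and without the set term. Of all 13714 tested genes, 260 were called higher within replicates 1-3, 0 within replicates 4-5, 153 by DESeq2 and 517 by DESeq2 with the set term. Beside the immediate early sums, *Adm* was 103, 117 and 97.7 in KO 1, KO 2 and KO 3, 71.2 in KO 4 and 107 in KO 5. The part of stress or handling in the *Adm* values was not tested. The red blood cell markers, led by *Hbb-bs* and *Hbb-bt*, summed to 101722 in KO 4 and 3012 to 26441 in the others. None of the 10 macrophage, 9 smooth muscle and pericyte or 5 lymphatic endothelial markers tested passed between genotypes in limma. In that fit 0.0656% of tested genes passed. An unadjusted p under 0.05 was found for 0, 1 and 1 of these markers and for 1421 of all 13714 tested genes. The macrophage sum was 1587 to 2663 in wild type and 2033 to 2431 in labelled *Mgp*-KO.

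Levels between genes were compared per kilobase of exon. In wild type, *Epas1* was the highest at 2057 ± 114 normalized counts per kb, followed by *Bnip3* at 858 ± 319, *Ramp2* at 167 ± 29.5, *Hif1a* at 137 ± 35.2 and *Ndrg1* at 103 ± 28.7 (SD, n = 5). *Calcrl* followed at 75.5 ± 39.1 and *Egln3* at 70.2 ± 17.3, then *Adm* at 19.5 ± 3.57, *Ramp3* at 19.0 ± 6.61 and *Ramp1* at 4.17 ± 2.05. In this order the ranges of mean ± SD overlapped between neighbours from *Ramp2* to *Egln3*, and between *Adm* and *Ramp3*. In labelled *Mgp*-KO, *Adm* was 61.3 ± 10.6 per kb, beside *Ramp3* at 19.5 ± 15.2 and *Egln3* at 89.1 ± 55.7, so the ranges of mean ± SD of *Adm* and *Ramp3* did not overlap there. *Ramp2* was the most abundant of the RAMP genes per kb in both groups, at 240 ± 78.3 in labelled *Mgp*-KO, with *Calcrl* at 148 ± 102.

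The 5 tested genes whose log2 values followed *Adm* most closely over the 10 libraries were *H2-M9* (Pearson r = 0.923), *Fam124a* (0.916), *Crip2* (0.913), *Smarcd3* (0.912) and *Kctd12* (0.906). This is a description over 10 libraries in 2 groups that do not overlap for any of these genes, so the correlation holds the gap between the groups. *H2-M9*, of a family of similar histocompatibility genes that can share reads, was 3.46 to 5.88 normalized counts in wild type and 12.9 to 26.8 in labelled *Mgp*-KO, so it passed the filter of 10 only through the labelled *Mgp*-KO libraries. *Crip2*, a LIM domain protein gene, was 644 to 1652 and 1756 to 3681, and *Kctd12*, whose product binds GABA-B receptors, was 999 to 1788 and 1962 to 3689. *Fam124a* was 38.1 to 75.1 and 93.6 to 138, and *Smarcd3*, which encodes a chromatin remodelling subunit, was 187 to 313 and 363 to 558. *Gpr182*, an endothelial receptor gene once listed as an adrenomedullin receptor, came next in order (r = 0.906). It is in none of the lists and was added because of its values, outside the naming rule, with 77.9 to 146 in wild type and 157 to 280 in labelled *Mgp*-KO.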

How the data were processed

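Per the labels and the methods, the authors used single reads (50 bases) and mapped them to mm10 with STAR, and the deposited values are a signal per gene, reads divided by a DESeq2 size factor (normalized counts). The annotation release and strand setting of their counting are not given in the sources used here. Divided by the smallest step of its library, each value (100%) was whole within 0.01 reads, so reads were recovered.

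Genotypes were compared with limma 3.58.1 (R 4.3.3, eBayes with a trend) on log2(normalized count + 1). A gene entered with a mean of 10 or more, which left 13714. P-values were adjusted by Benjamini-Hochberg over all of them, with a threshold of 0.05. DESeq2 1.42.0 and edgeR 4.0.16 on the recovered reads, other settings and libraries left out were alternatives. The fits were tested on simulated data. No label names separate litters or extractions, so p-values measure the spread between these mice. Coordinates are from GENCODE M21 on GRCm38, which held 94.15% of the listed symbols.

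The 10 genes and all lists were chosen with earlier results of these data known. Named genes are the 10, list genes past the threshold in either fit or without overlap, the 5 most correlated with *Adm*, *Mgp*, *Xist*, and the 2 most abundant markers or any past the threshold. Other genes of the adrenomedullin list were named for their function, after their values were seen.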

Additional observations from a re-analysis of the deposited data

Results flagged for a closer look

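Within a group of 5 libraries, 5 of 52 groups examined (26 genes) held 1 library whose gap to the nearest other was over 0.71 of the group's range, and chance gives about 1 in 20. They were *Adm* in WT 1 (41.5 normalized counts, the highest of wild type), *Ramp3* in KO 4 (63.1), *Ndrg1* in WT 4 (1017), *Hif3a* in KO 2 (164) and *Xist* in WT 2 (5094). KO 2 also had the highest skeletal muscle sum (41724) and KO 4 the highest endothelial sum (79715), and the part of either in these values was not tested. The genotype difference of *Mgp* differed between replicates 1-3 and 4-5 (limma interaction, log2 difference 7.16, adjusted p = 2.51e-04), since the libraries labelled KO 4 and KO 5 held *Mgp* reads.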

How the results depend on the processing

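The comparison was repeated under 30 other settings, of which 3 (covariates for skeletal muscle and for endothelial markers, and the 5 low-muscle libraries) were chosen after seeing the data. The log2 difference of *Adm* was 1.38 to 1.78 in all 30, and 1.55 to 1.73 with 1 library left out. *Adm* passed the threshold in 18 of 30. The number of the 10 genes past the threshold, 1 over all libraries, was 0 with edgeR, without the filter on low values, with the muscle covariate, in the low-muscle libraries and within replicates 4-5, 2 within replicates 1-3 (*Adm* and *Ndrg1*) and 3 with DESeq2 and the set term (*Adm*, *Calcrl* and *Ndrg1*). With 1 library left out it was 0 to 1, and it was 0 without WT 2, WT 3, WT 5, KO 1, KO 2, KO 3 or KO 5. The number of HIF targets past the threshold, 0 over all libraries, was, with the number of all genes called in brackets, 3 with DESeq2 (374), 4 with the set term in limma (324) and in edgeR (341), 4 with the replicate block in edgeR (222), 3 within replicates 1-3 (486), 1 without KO 4 and KO 5 (267), and 8 with DESeq2 and the set term (1152), of which 3 (*Aldoc*, *Angptl4* and *Hilpda*) were higher and 5 lower. It was 0 to 0 with 1 library left out. The causes were not tested.

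With the replicate number as a block in limma, 1 of the 10 genes and 5 HIF targets passed, and 270 of all genes. Of the 17 endothelial markers 1 passed with it (*Esam*), and 10 had an unadjusted p under 0.05 beside 2629 of all genes. The paper describes the mice as 5 pairs, without stating which libraries form a pair. The numbers were not taken as pairs here. Same-numbered libraries deviated together with a mean correlation of 0.390 and a lowest of 0.056 (WT 2 and KO 2), beside 0.416 for other numbers of the same set. Not every library correlated best with its own number. The counts of all genes past the threshold were 9 in limma, 324 with the set term, 374 with DESeq2 and 3 with edgeR. *Epas1* moved from -0.13 to 0.01 with quantile normalization. Depth limits *Ramp1*, *Ramp3* and *Calca*, with 5 to 47, 14 to 39 and 2 to 9 reads per library.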
